A study of Mus musculus with 6 samples.

Results

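Toll-like receptors are membrane proteins that recognise microbial molecules, and their 10 genes Tlr1 to Tlr9 and Tlr13 were followed here across mouse bone marrow cells transduced with MN1VP16 or MN1 and sorted Gr1Mac marrow cells. The members were taken by gene symbol: every probe set that the array annotation gives to exactly 1 of these genes, which made 16 of 34945 such probe sets and 10 of 18193 genes. For a gene with several probe sets the one of highest mean was used, and the others are described further below.

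The MN1VP16 group (n = 2 arrays) held GFP-positive cells carrying pSF91-MN1VP16-IRES-GFP, and the MN1 group (n = 2) held GFP-positive cells carrying pSF91-MN1-IRES-GFP; both are gammaretroviral vectors, so every descendant of a transduced marrow cell can carry the GFP. Marrow for both came from C57BL/6J mice that had been given 150 mg/kg 5-fluorouracil for 4 days; it was cultured for 48 hours with the cytokines hIL6, mIL3 and mSCF, transduced by coculture with irradiated E86 producer cells, and injected into lethally irradiated syngeneic mice, from which the cells were sorted 4 weeks later. The Gr1Mac group (n = 2) held bone marrow cells sorted for the surface proteins Gr1 and CD11b, which granulocytes and monocytes carry. The labels leave unsaid whether their donors had been transplanted. All groups are of the strain C57BL6, and no empty-vector group was analysed here. MN1 is a cofactor of transcription that can drive myeloid leukaemia in mice, and VP16 names an activator protein of herpesvirus; beyond its name, the MN1VP16 construct is not described. Neither the age of the mice nor separate mice for the replicate arrays are given, so p-values here cover the spread among arrays alone, which may be technical in part; the Gr1Mac arrays differed in Xist (10.44 and 5.83) and in the Y-linked gene Kdm5d (3.11 and 7.37), so in that group it is not the spread between repeats of 1 sample.

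Each Toll-like receptor binds its ligand through leucine-rich repeats and signals through a cytoplasmic TIR domain, which recruits the adaptor Myd88 or, for Tlr3 and one branch of Tlr4 signalling, Ticam1. Kinases of the Irak family and NF-kB and Irf transcription factors then switch on genes for cytokines and chemokines. Tlr1, Tlr2, Tlr4, Tlr5 and Tlr6 act at the cell surface and read bacterial wall components and flagellin, while Tlr3, Tlr7, Tlr8, Tlr9 and Tlr13 sit in endosomes and read nucleic acids; granulocytes, monocytes and macrophages carry many of them.

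The values are log2 expression values made by the authors with RMA, and differences are between group means on that log2 scale, with the standard error (SE) that limma gives. Genes count as called when limma's p, adjusted over all 18193 genes by the Benjamini-Hochberg method, was below 0.05. No detection calls were used. Xist read at most 5.84 on arrays with high Y-linked genes; that level, picked with the values in view, serves as a guide, and readings at or below it are called dim. Across all ordinary probe sets, arrays of the same group correlated at 0.981 to 0.990 and arrays of different groups at 0.890 to 0.972. Itgam, which encodes CD11b, read 9.44 and 8.88 on the MN1VP16 arrays, 7.67 and 6.95 on the MN1 arrays, and 10.95 and 10.92 on the Gr1Mac arrays; Ly6g and Ly6c1, the genes behind the Gr1 epitope, had no single-gene probe set. Xist was high on both MN1 arrays and on Gr1Mac array 1, and Y-linked genes were high on both MN1VP16 arrays and on Gr1Mac array 2. This split coincides with the construct on the 4 arrays of transduced cells. Tlr7, Tlr8 and Tlr13 are genes of the X chromosome. The probe set for Mn1 itself read between 3.63 and 4.92 on all 6 arrays, at dim level also in the transduced cells, and so did not check the constructs.

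Among the surface receptors, 4 of 5 genes fell in MN1 cells relative to Gr1Mac cells: Tlr1, Tlr2, Tlr4 and Tlr6. Among the endosomal receptors, Tlr13 fell, and of all genes 12% fell in this comparison. Of the other endosomal receptors, Tlr3 and Tlr8 were dim on every array. Tlr7 was lower without overlap but not called (difference -1.63). A difference between the surface and endosomal receptors was not tested. Limma called 0 receptor genes in MN1VP16 against Gr1Mac cells (of all genes 3.66% were higher and 2.11% lower). At an unadjusted p under 0.05, 3 receptor genes were lower there, beside 10.3% of all genes. Tlr1 was called higher in MN1VP16 than in MN1 cells, as were 1.15% of all genes. Tlr2, Tlr4 and Tlr6 had both MN1VP16 arrays above the MN1 arrays and below the Gr1Mac arrays, as did 10.4% of all genes.

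Promoter windows are shown for 4 of the 5 genes that fell in MN1 cells and for Tlr9, whose level hardly moved, so that the flanking sequence of receptors with different patterns can be read side by side. They cover 250 bases before and 50 after a gene's start in RefSeq (build GRCm38.p6), on the gene's strand. RefSeq windows matched 8 of the 10 genes, with 10 windows in all, and the first listed window is shown for Tlr1 and Tlr6, which have 2 each. The Tlr1 window is at chr5:64933509-64933808 on the minus strand, the Tlr2 window at chr3:83841559-83841858 on the minus strand, the Tlr6 window at chr5:64959117-64959416 on the minus strand, the Tlr13 window at chrX:106143025-106143324 on the plus strand and the Tlr9 window at chr9:106222348-106222647 on the plus strand. Capitals mark matches to the searched motifs.
Tlr1: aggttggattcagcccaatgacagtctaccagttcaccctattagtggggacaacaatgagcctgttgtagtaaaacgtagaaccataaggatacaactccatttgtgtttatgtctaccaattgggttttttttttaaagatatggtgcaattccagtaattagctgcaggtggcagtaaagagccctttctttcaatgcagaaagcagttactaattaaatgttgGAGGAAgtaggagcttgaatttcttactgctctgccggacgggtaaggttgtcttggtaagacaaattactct
Tlr2: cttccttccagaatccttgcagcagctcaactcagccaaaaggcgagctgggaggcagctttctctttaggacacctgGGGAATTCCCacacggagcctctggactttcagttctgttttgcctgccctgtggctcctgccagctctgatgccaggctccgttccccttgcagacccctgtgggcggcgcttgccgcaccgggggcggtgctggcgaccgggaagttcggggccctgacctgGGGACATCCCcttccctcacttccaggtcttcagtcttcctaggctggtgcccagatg
Tlr6: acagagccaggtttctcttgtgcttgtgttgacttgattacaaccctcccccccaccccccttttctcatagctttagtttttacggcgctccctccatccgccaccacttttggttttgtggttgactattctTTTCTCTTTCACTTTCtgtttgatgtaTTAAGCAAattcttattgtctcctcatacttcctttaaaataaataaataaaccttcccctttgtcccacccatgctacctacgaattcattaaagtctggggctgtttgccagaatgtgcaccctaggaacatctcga
Tlr13: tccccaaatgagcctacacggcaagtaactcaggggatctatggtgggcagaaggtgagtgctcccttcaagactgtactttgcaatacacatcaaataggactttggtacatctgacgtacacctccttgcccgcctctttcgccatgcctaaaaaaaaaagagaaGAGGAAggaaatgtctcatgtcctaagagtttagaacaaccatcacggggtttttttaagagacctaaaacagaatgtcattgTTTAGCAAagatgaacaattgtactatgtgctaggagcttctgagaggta
Tlr9: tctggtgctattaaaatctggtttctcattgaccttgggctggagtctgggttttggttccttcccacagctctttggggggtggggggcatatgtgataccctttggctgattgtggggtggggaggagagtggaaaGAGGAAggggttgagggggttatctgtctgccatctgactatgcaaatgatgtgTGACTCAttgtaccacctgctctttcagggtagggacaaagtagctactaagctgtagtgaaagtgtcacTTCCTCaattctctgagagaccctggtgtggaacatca

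The motifs were searched on both strands, and positions give the first base of a match counted from the gene's start. They were GAGGAA, a core that PU.1 and other ETS factors bind, TTGCNNAA for C/EBP factors, GAAA, any 2 bases and GAAA for the interferon response element, GGGA, any 4 bases and CC for NF-kB and TGANTCA for AP-1. Of 32817 RefSeq windows of this length, 28.3% held GAGGAA, 10.8% the C/EBP motif, 3.43% the interferon response element, 20.7% the NF-kB motif and 7.81% the AP-1 motif. The Tlr1 window held GAGGAA at position -23, and the Tlr13 window held GAGGAA at -83 with a C/EBP match at 1. The Tlr2 window held NF-kB matches at -172 and -8, each of which reads as a match on both strands. The Tlr6 window held interferon response element matches at -116 and -110, which overlap by 4 bases, and a C/EBP match at -89. The Tlr9 window held GAGGAA matches at -112 and 13 and an AP-1 match at -58. No motif was common to the shown windows of the genes that fell. A match describes letters only, and no binding was measured.

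**Figure D1:**
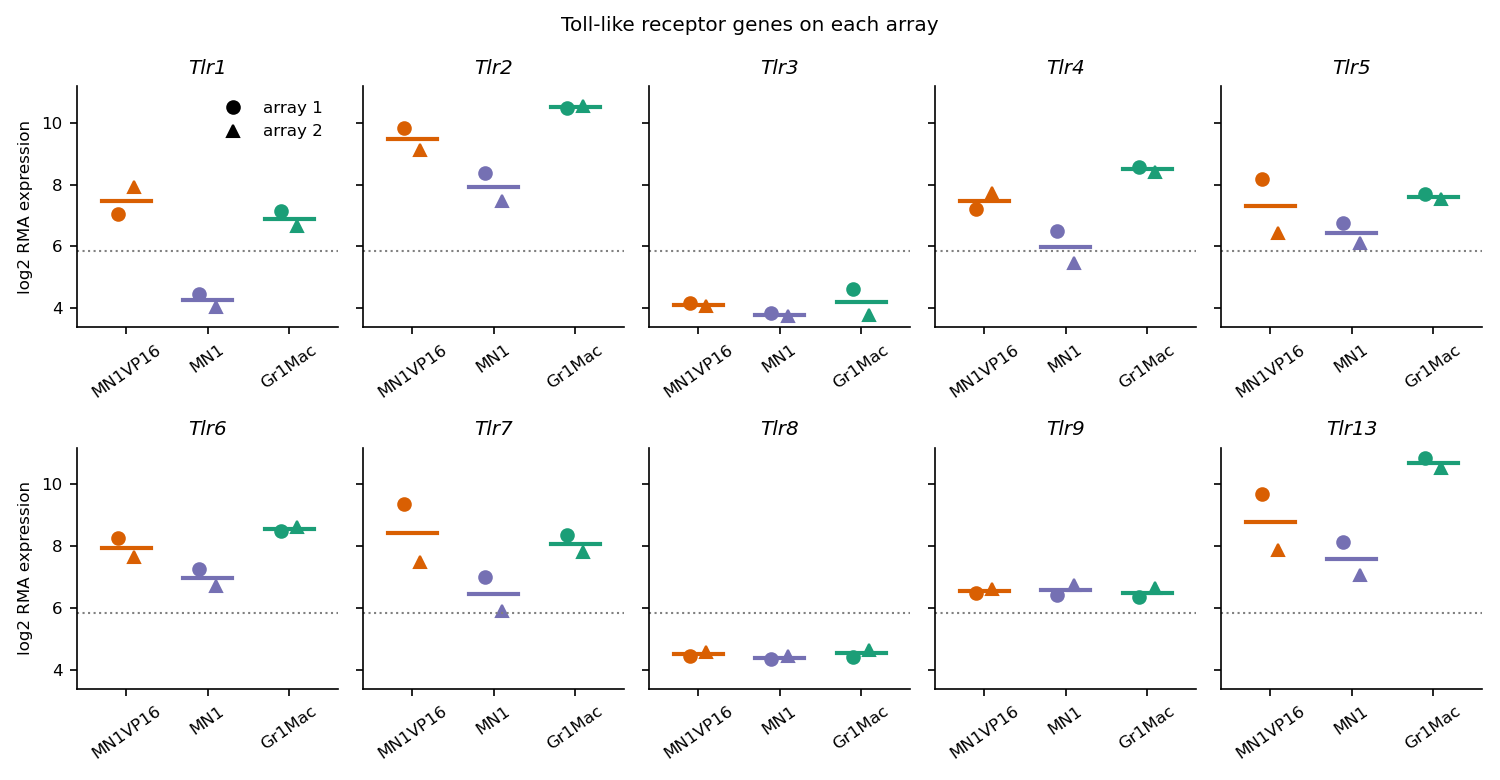
Log2 expression of the 10 Toll-like receptor genes, one panel per gene, with a point for each array of MN1VP16, MN1 and Gr1Mac cells a bar at the group mean and a dotted line at the guide level of 5.84. Both MN1 arrays lie below both Gr1Mac arrays for Tlr1, Tlr2, Tlr4, Tlr5, Tlr6, Tlr7 and Tlr13, while the groups mix for Tlr3, Tlr8 and Tlr9.

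The first comparison was MN1 cells against Gr1Mac cells, the marrow population sorted for Gr1 and CD11b. A split of the arrays by their control features set both MN1 arrays against both Gr1Mac arrays. The groups cannot be told apart from that split here. Of the 10 receptor genes, 5 fell (limma, adjusted p under 0.05), against 12% of all genes called lower in this comparison. None was called higher by limma, and 0 were higher at an unadjusted p under 0.05, against backgrounds of 17.3% and 22.1%. The median difference of the 10 genes was -1.60, beside -0.06 for all genes.

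Tlr2 is the shared partner that pairs with Tlr1 or Tlr6 to bind bacterial lipopeptides. It read 8.37 and 7.48 on the MN1 arrays, against 10.48 and 10.54 on the Gr1Mac arrays. Both MN1 arrays lay well below both Gr1Mac arrays, and the difference was -2.58 (SE 0.36, limma adjusted p = 0.00428), or 6.00-fold lower.

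Tlr1, the partner for triacylated lipopeptides, read 4.45 and 4.06 on the MN1 arrays, against 7.13 and 6.64 on the Gr1Mac arrays. Both MN1 readings were dim and the groups did not overlap. The difference was -2.63 (SE 0.34, limma adjusted p = 0.00362), and with the dim side held at the guide level Tlr1 was at least 2.07-fold lower.

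Tlr6, the partner for diacylated lipopeptides, read 7.25 and 6.70 on the MN1 arrays, against 8.50 and 8.60 on the Gr1Mac arrays. The groups did not overlap, and the difference of -1.57 (SE 0.28, limma adjusted p = 0.00909) made Tlr6 2.98-fold lower in MN1 cells.

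Tlr4, the receptor for bacterial lipopolysaccharide, read 6.49 and 5.46 on the MN1 arrays, against 8.57 and 8.42 on the Gr1Mac arrays. MN1 array 2 was dim, MN1 array 1 was not, and both were below Gr1Mac. The difference was -2.52 (SE 0.37, limma adjusted p = 0.00495), or 5.73-fold.

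Tlr13, a mouse receptor for bacterial ribosomal RNA, read 8.12 and 7.05 on the MN1 arrays, against 10.83 and 10.54 on the Gr1Mac arrays. Its difference was -3.10 (SE 0.63, limma adjusted p = 0.0147), or 8.56-fold lower, with no overlap between the groups.

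Tlr5, the flagellin receptor, read 6.75 and 6.12 on the MN1 arrays, against 7.68 and 7.54 on the Gr1Mac arrays. Tlr7, which binds single-stranded RNA, read 7.0 and 5.89 on the MN1 arrays, against 8.35 and 7.80 on the Gr1Mac arrays. Neither overlapped between the groups, yet neither passed the test: the differences were -1.18 (SE 0.56, limma adjusted p = 0.175) for Tlr5 and -1.63 (SE 0.66, limma adjusted p = 0.123) for Tlr7. Counted without overlap, 7 of the 10 genes were lower in MN1 cells, against 35.8% of all genes. When only the MN1 and Gr1Mac arrays entered the fit, both were called lower, with limma adjusted p = 0.0230 for Tlr5 and 0.0353 for Tlr7.

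Tlr9, which binds unmethylated CpG DNA, read 6.42 and 6.75 on the MN1 arrays, against 6.34 and 6.64 on the Gr1Mac arrays, with the groups interleaved. Its difference was 0.09 with a 95% interval of -0.39 to 0.57 (limma adjusted p = 0.787). Tlr3, which binds double-stranded RNA, read 3.84 and 3.74 on the MN1 arrays, against 4.61 and 3.80 on the Gr1Mac arrays. Tlr8, an endosomal RNA receptor related to Tlr7, read 4.35 and 4.43 on the MN1 arrays, against 4.42 and 4.65 on the Gr1Mac arrays. Both genes were dim on every array, so no fold is given for them.

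Of 17 alternative settings some coincide in this comparison, and many leave the difference as it is and move only its error or the genes tested beside it; for Tlr2 they gave 14 distinct results. The Tlr2 call was made in each of them, with a limma adjusted p of at most 0.0331, whereas the other calls each failed in at least 1. With the arrays blocked by the side on which their control features fell, the difference was -1.77 for Tlr1 (adjusted p = 0.0707) and -1.99 for Tlr4 (adjusted p = 0.117). The same block put Tlr5 at -2.93, Tlr7 at -3.51 and Tlr13 at -4.93. Both MN1 arrays were on 1 side of it and both Gr1Mac arrays on the other. The block therefore rests on the gap between the MN1VP16 arrays, with 1 array on each side, and the shifts it made restate that gap. The adjusted p was also above the threshold in other settings: with MN1 array 2 left out it was 0.0599 for Tlr6 and 0.0901 for Tlr13, with Gr1Mac array 2 left out 0.0545 and 0.0717 for the same genes, and with Gr1Mac array 1 left out 0.0809 for Tlr13. With MN1 array 2 left out, 3 receptor genes were called lower. MN1 array 2 read below MN1 array 1 for 8 of the 10 receptor genes, with gaps of 0.11 to 1.11.

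**Figure D2:**
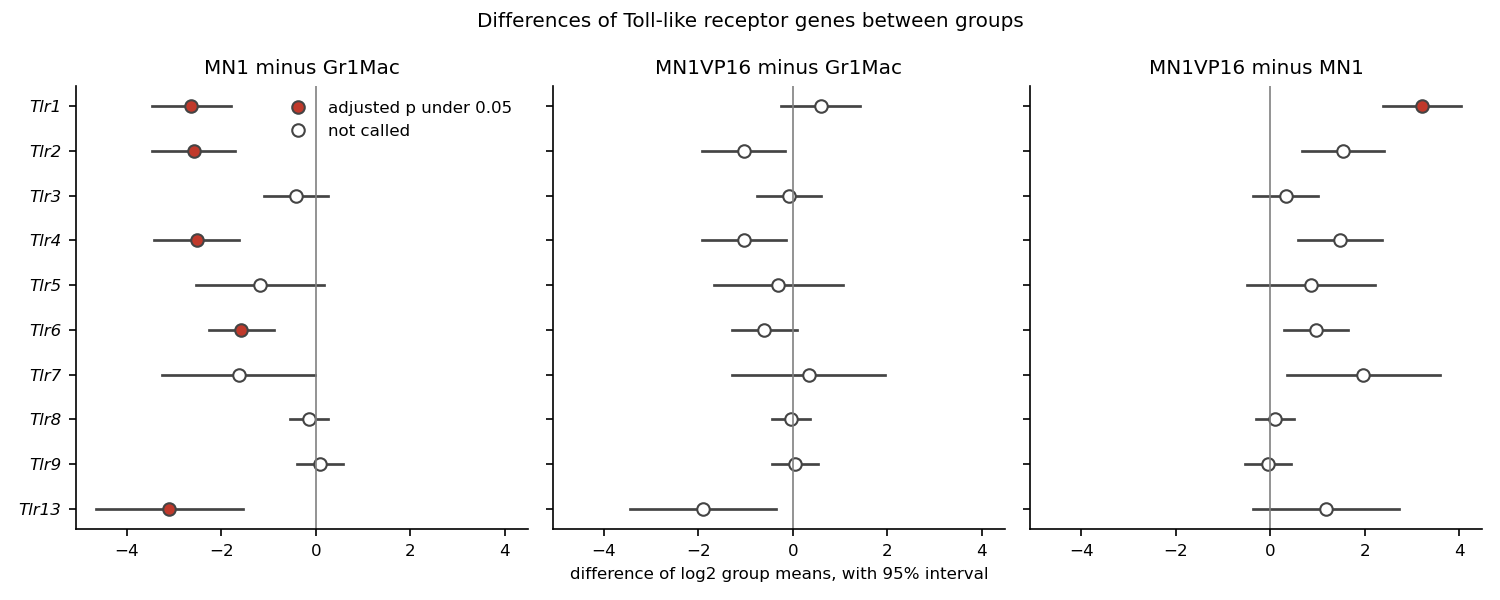
Differences of log2 group means for the 10 genes in the 3 comparisons, with 95% intervals from limma; filled points passed an adjusted p under 0.05. In the first panel Tlr1, Tlr2, Tlr4, Tlr6 and Tlr13 are filled and lie left of 0, in the middle panel no point is filled, and in the last panel Tlr1 alone is filled, to the right of 0.

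In bulk samples, fewer cells of a type and less RNA per cell cannot be told apart, and most markers of the Gr1Mac cell types moved with the receptors. Of 10 measured monocyte and macrophage markers, 8 fell in MN1 cells against Gr1Mac cells, beside 12% of all genes. The other 2 were not called: Cx3cr1 differed by -1.45, and Mrc1 went the other way by 1.27, without overlap. The summed linear level of the list was 2993 to 3990 in MN1 cells and 13600 to 22590 in Gr1Mac cells, with 3 markers dim in MN1 cells. Of 9 granulocyte markers, 6 fell, and the summed level of the list was 95220 to 138200 in MN1 cells and 204500 to 204900 in Gr1Mac cells. Itgam is among the 6, and since Gr1Mac cells were sorted on its product CD11b, its place there is no independent result. More broadly, Gr1Mac cells were sorted on Gr1 and CD11b, and the transduced cells on GFP. All marker counts against Gr1Mac cells, in either direction, are therefore not independent of that choice of cells. Stem and progenitor markers went the other way, with 6 of 7 higher in MN1 cells, beside 17.3% of all genes, and a summed level of 14470 to 17080, against 1103 to 1259 in Gr1Mac cells. Erythroid markers were higher in 4 of 5 cases (19750 to 27990 in MN1 cells and 1732 to 2789 in Gr1Mac cells), as were mast cell and basophil markers in 3 of 5 (22730 to 30630 in MN1 cells and 4048 to 6148 in Gr1Mac cells). Of 9 dendritic cell markers 3 were higher (33.3%, beside 17.3% of all genes) and 2 lower (22.2%, beside 12%). Their summed level was 3805 to 3999 in MN1 cells and 804.5 to 891.7 in Gr1Mac cells. Of 7 T and NK cell markers 1, Cd3d, was lower (14.3%, near the 12% of all genes). The summed level of that list was 759.4 to 1205 in MN1 cells and 1340 to 1544 in Gr1Mac cells. The part of these cell types in the receptor differences was not tested. B cells, which also use Toll-like receptors, had a summed marker level of 459.2 to 471.9 in MN1 cells and 288.9 to 504.6 in Gr1Mac cells. Of 7 B cell markers 1, Igll1, was called higher (difference 1.01, limma adjusted p = 0.0326), beside 17.3% of all genes. Another, Ms4a1, was called lower, beside 12% of all genes, and was dim in both group means. The B cell factors Ebf1 and Pax5 were dim on all 6 arrays.

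The second comparison was MN1VP16 cells against the same Gr1Mac arrays. Limma called 0 of 10 receptor genes higher and 0 lower, against 3.66% and 2.11% of all genes. At an unadjusted p under 0.05, 3 receptor genes were lower (Tlr2, Tlr4 and Tlr13; background 10.3%) and 0 were higher (background 13.4%). The median difference over the 10 genes was -0.20, beside -0.00 for all genes.

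Tlr2 read 9.81 and 9.11 on the MN1VP16 arrays, against 10.48 and 10.54 on the Gr1Mac arrays, a difference of -1.04 (SE 0.36, limma adjusted p = 0.148). Tlr4 read 7.19 and 7.72 on the MN1VP16 arrays, against 8.57 and 8.42 on the Gr1Mac arrays, also a difference of -1.04 (SE 0.37, limma adjusted p = 0.160). The MN1VP16 arrays were below the Gr1Mac arrays for both genes without passing the test. Tlr6 read 8.25 and 7.64 on the MN1VP16 arrays, below 8.50 and 8.60 on the Gr1Mac arrays, with a difference of -0.60 (limma adjusted p = 0.263).

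Tlr13 read 9.69 and 7.86 on the MN1VP16 arrays, against 10.83 and 10.54 on the Gr1Mac arrays. Both MN1VP16 arrays were lower but lay far apart, and the difference was -1.91 (SE 0.63, limma adjusted p = 0.139, 95% interval -3.46 to -0.36). Without overlap, 4 of 10 genes were lower in MN1VP16 cells, against 25.2% of all genes.

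Tlr1 read 7.04 and 7.91 on the MN1VP16 arrays, against 7.13 and 6.64 on the Gr1Mac arrays, so that the groups overlapped. Its difference was 0.59, with a 95% interval of -0.24 to 1.42 (limma adjusted p = 0.370). Tlr5, Tlr7, Tlr9, Tlr3 and Tlr8 also overlapped between these groups, with differences of -0.31, 0.34, 0.04, -0.09 and -0.04 in that order of names. The summed level of the monocyte markers was 15720 to 25470 in MN1VP16 cells, against 13600 to 22590 in Gr1Mac cells, and that of the granulocyte markers was 150400 to 164700 in MN1VP16 cells, against 204500 to 204900 in Gr1Mac cells. Of the 10 monocyte markers, Mrc1 was called higher (difference 2.93) and C1qa lower (difference -1.04). The granulocyte sum rests on its brightest genes, among them S100a8 with means of 15.12 in MN1VP16 cells and 15.09 in Gr1Mac cells. Of the 9 granulocyte markers, Itgam, the gene of the sorted protein, was called lower (difference -1.77, limma adjusted p = 0.0322), beside 2.11% of all genes. At an unadjusted p under 0.05, 4 were lower (10.3% of all genes), the others being Mmp9 (-1.76), Csf3r (-1.61) and Cxcr2 (-1.63). Beside 3.66% of all genes, 4 of 7 stem and progenitor and 3 of 5 erythroid markers were called higher. So were 2 of 5 mast cell and basophil markers and 2 of 7 B cell markers. Called lower, beside 2.11% of all genes, were 1 of 9 dendritic cell and 1 of 7 T and NK cell markers. The summed stem and progenitor level was 6706 to 7066 in MN1VP16 cells, against 1103 to 1259 in Gr1Mac cells. The part of these cell types was not tested.

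The third comparison set MN1VP16 cells directly against MN1 cells; on these 4 arrays the constructs cannot be told apart from the split by Xist and Y-linked genes. Of the 10 receptor genes, Tlr1 was called higher in MN1VP16 cells (1.15% of all genes were) and 0 were called lower by limma (2.7%). At an unadjusted p under 0.05, 5 were higher (Tlr1, Tlr2, Tlr4, Tlr6 and Tlr7; 9.15% of all genes) and 0 were lower (13.3%). The median difference was 1.08, beside 0.03 for all genes.

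Tlr1 read 7.04 and 7.91 on the MN1VP16 arrays, against 4.45 and 4.06 on the MN1 arrays. It was well above the guide level on both MN1VP16 arrays and dim on both MN1 arrays. The difference was 3.22 (SE 0.34, limma adjusted p = 0.0176), and Tlr1 was at least 3.11-fold higher. The call was lost without MN1 array 2 (difference 3.02) and with a block for arrays high in Xist against arrays high in Y-linked genes (difference 3.71, limma adjusted p = 0.235). It was made under the other alternatives. In this comparison the block is estimated from the gap between the Gr1Mac arrays alone (0.48 for Tlr1). It therefore cannot separate the constructs from the split by Xist and Y-linked genes.

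Tlr2 was higher by 1.54 (SE 0.36, limma adjusted p = 0.0733), Tlr4 by 1.48 (SE 0.37, 0.0849), Tlr6 by 0.97 (SE 0.28, 0.113) and Tlr7 by 1.97 (SE 0.66, 0.154), none past the threshold. Tlr7 read 9.35 and 7.47 on the MN1VP16 arrays, against 7.0 and 5.89 on the MN1 arrays. For each of these 4 genes both MN1VP16 arrays exceeded both MN1 arrays. Tlr5 differed by 0.87 and Tlr13 by 1.19 with overlapping arrays, and Tlr9 by -0.04 with a 95% interval of -0.52 to 0.44 (limma adjusted p = 0.931).

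Without overlap, 6 of 10 genes were higher in MN1VP16 than in MN1 cells, against 30.5% of all genes; the sixth was Tlr3, at 4.17 and 4.06 on the MN1VP16 arrays and 3.84 and 3.74 on the MN1 arrays, all dim. Tlr2, Tlr4 and Tlr6 had both MN1 arrays below both MN1VP16 arrays and these below both Gr1Mac arrays. This stepwise order held for 3 of 10 receptor genes and for 10.4% of all genes. Markers of several cell types differed as well, beside 1.15% of all genes called higher and 2.7% called lower. Of 10 monocyte markers, 4 were higher in MN1VP16 cells, with summed levels of 15720 to 25470 in MN1VP16 cells and 2993 to 3990 in MN1 cells. Of 9 granulocyte markers 1, Itgam, was higher, and of 7 B cell markers 1, Cd79a, was (4 at an unadjusted p under 0.05, beside 9.15% of all genes), with a summed B cell level of 1034 to 1136 in MN1VP16 cells and 459.2 to 471.9 in MN1 cells. Erythroid markers were lower in 4 of 5 cases, with summed levels of 2952 to 5314 in MN1VP16 cells and 19750 to 27990 in MN1 cells. Of 7 stem and progenitor markers 1, Kit, was lower (6706 to 7066 in MN1VP16 cells and 14470 to 17080 in MN1 cells), and of 9 dendritic cell markers 1 was lower (1044 to 1713 in MN1VP16 cells and 3805 to 3999 in MN1 cells). Mast cell and basophil markers had 0 of 5 called by limma and 2 lower at an unadjusted p under 0.05 (13.3% of all genes), with summed levels of 10450 to 12510 in MN1VP16 cells and 22730 to 30630 in MN1 cells. The part of these cell types in the receptor differences was not tested.

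**Figure D3:**
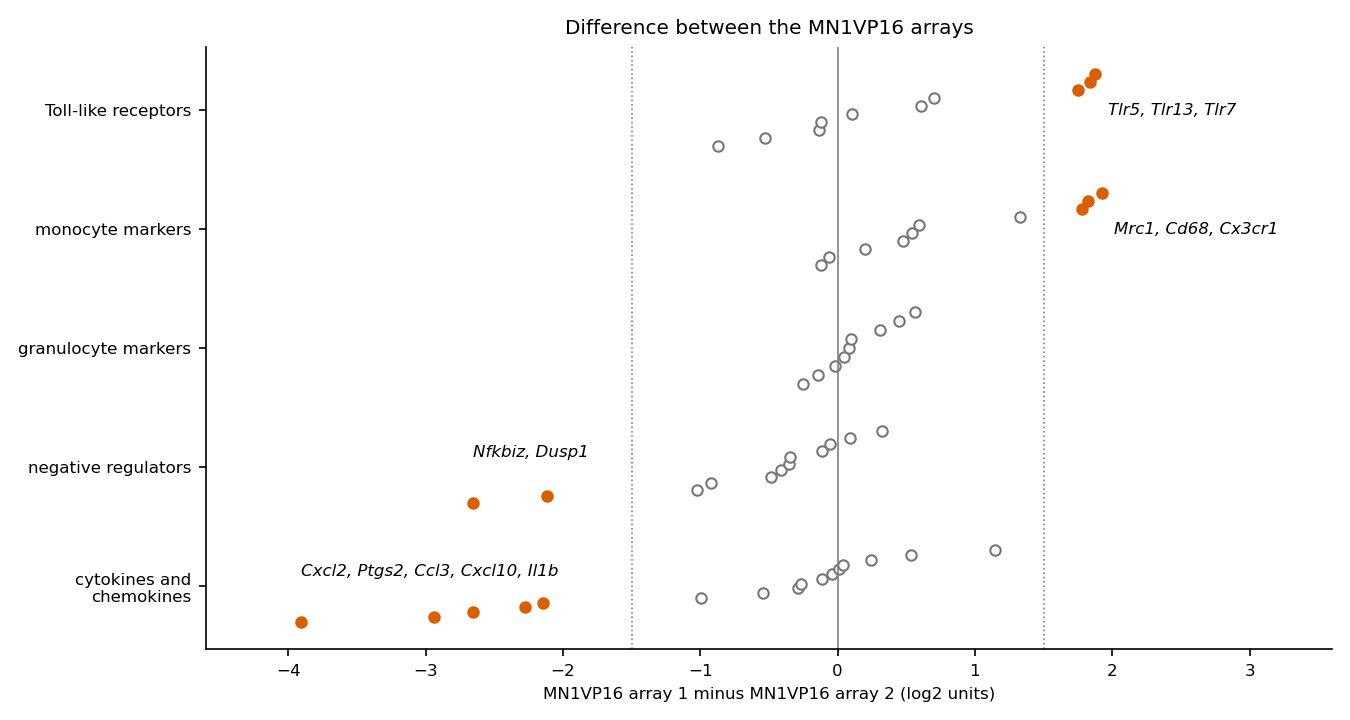
Difference between MN1VP16 array 1 and MN1VP16 array 2 (log2 units) for the receptor genes, monocyte and granulocyte markers, negative regulators and the cytokine and chemokine list. That list also holds the enzyme gene Ptgs2. Each point is a gene, dotted lines mark 1.5 log2 units, and genes beyond them are named. Tlr5, Tlr13 and Tlr7 lie on the same side as Mrc1, Cd68 and Cx3cr1, and Cxcl2, Ptgs2, Ccl3, Cxcl10 and Il1b lie on the other.

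The MN1VP16 arrays differed from each other in several receptors. Tlr7 was higher on array 1 by 1.88, Tlr13 by 1.83 and Tlr5 by 1.75, and these were the receptor genes that differed by at least 1.5 log2 units, a threshold chosen after the values were seen. By this measure 3 of 10 receptor genes were higher on array 1, against 1.42% of all genes. The reverse applied to 0 of 10, against 0.841% of all genes; Tlr1 and Tlr4 were higher on array 2, with array 1 minus array 2 at -0.87 and -0.53.

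Markers of several cell types were also at least 1.5 log2 units higher on array 1: 3 of 10 for monocytes (Cx3cr1 by 1.92, Cd68 by 1.83 and Mrc1 by 1.78), 2 of 5 for mast cells and basophils (Fcer1a by 4.62 and Ms4a2 by 2.43), 2 of 7 for stem and progenitor cells (Meis1 by 2.18, and Cd34 just past the threshold), 1 of 9 for dendritic cells (Flt3 by 2.34) and 1 of 5 for erythroid cells (Car1 by 2.00). On array 2, Nkg7 of the T and NK cell list, Mcpt8 of the mast cell and basophil list and Hoxa9 of the stem cell list were higher, with array 1 minus array 2 at -2.69, -1.94 and -1.71. The median gap was 0.97 for the 5 erythroid markers and 0.57 for the 10 monocyte markers. The part of these cell types in the receptor gaps was not tested. Genes of the cytokine and chemokine list, which also holds the enzyme gene Ptgs2, were on the other side. There 5 of 16 were at least 1.5 log2 units higher on array 2. Cxcl2, a neutrophil attractant, read 7.36 on MN1VP16 array 1 and 11.27 on array 2. Dusp1, a phosphatase that shuts off MAP kinases, read 11.49 on array 1 and 13.61 on array 2, and Cd14, the lipopolysaccharide carrier of Tlr4, read 9.72 on array 1 and 11.42 on array 2. With 1 array on each side these are descriptions, and no test is given.

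**Figure D4:**
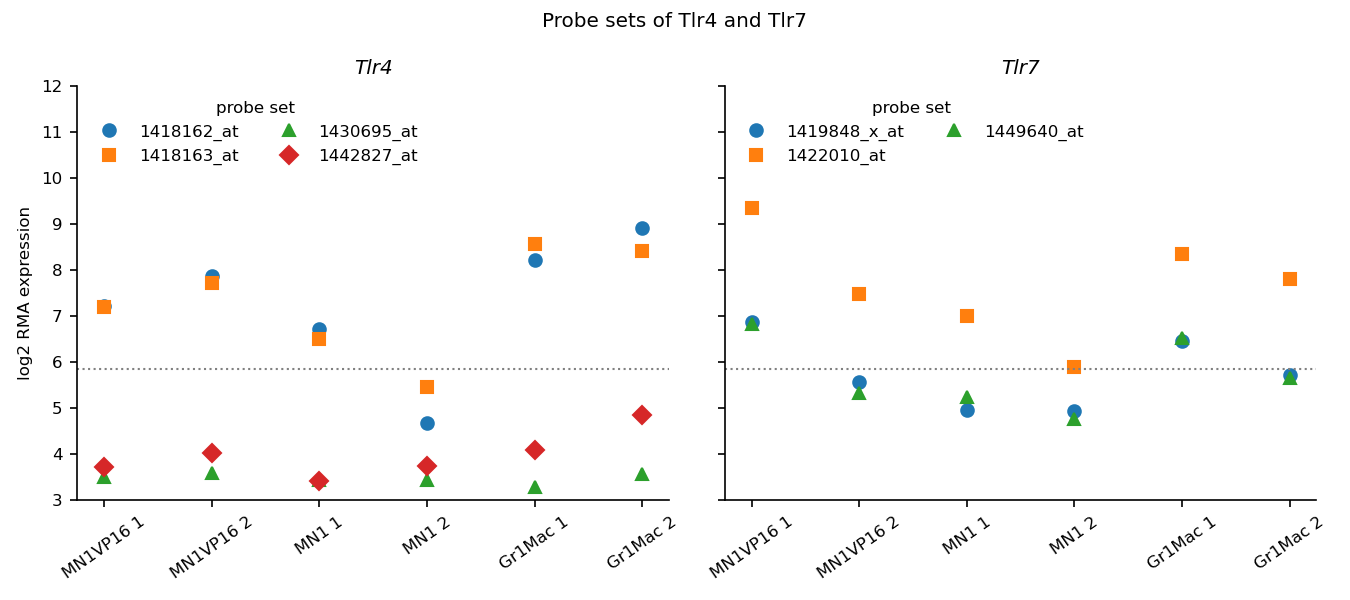
Log2 expression of every single-gene probe set of Tlr4 (left) and Tlr7 (right) on the 6 arrays, with a marker for each probe set and a dotted line at the guide level of 5.84. The bright Tlr4 probe sets and all Tlr7 probe sets place both MN1 arrays below both Gr1Mac arrays, while the remaining Tlr4 probe sets lie under the line on every array.

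Of the 10 genes, Tlr3 had 2 probe sets, Tlr4 4 and Tlr7 3, and the rest had 1. The second bright Tlr4 probe set read 6.71 and 4.67 on the MN1 arrays, against 8.22 and 8.90 on the Gr1Mac arrays. Its MN1 mean of 5.69 is dim, so it was at least 4.89-fold lower in MN1 cells, with a limma adjusted p of 0.0218 over all 34945 probe sets. The remaining Tlr4 probe sets had group means of at most 4.46, all dim. All 3 Tlr7 probe sets were lower in MN1 than in Gr1Mac cells on every array, with limma adjusted p of 0.124, 0.121 and 0.200; of these, 2 were dim in the MN1 mean (4.95 and 5.00). Probe sets of 1 gene share its transcripts and are not replicates.

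Tlr1 had the widest range of group means among the receptors, with 7.47 in MN1VP16 cells, 4.25 in MN1 cells and 6.89 in Gr1Mac cells. This range and the likeness to it rest on the dim MN1 readings, taken as measured. The genes whose pattern over the 6 arrays was most like that of Tlr1 were Lef1, Slc36a1, Edem1, Tapbp and Spem1, with Pearson r of 0.983 to 0.988. The arrays fall into 3 groups and share their normalisation, so this is a description with no p. Tapbp, a chaperone for peptide loading of MHC class I, read 11.51 and 11.67 on the MN1VP16 arrays, 10.54 and 10.33 on the MN1 arrays, and 11.50 and 11.08 on the Gr1Mac arrays. Lef1 was dim on all 6 arrays, and its range was narrow (4.89 to 5.13).

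The partners of the receptors were then counted in lists of the pathway by role, of which 86 of 98 genes were measured. In MN1 cells against Gr1Mac cells, 39 of 86 fell and 5 rose (limma, adjusted p under 0.05), or 45.3% and 5.81%, with 12% and 17.3% as the shares for all genes. The count of 39 was 21 without MN1 array 2, 22 without Gr1Mac array 1, and 11 with the block for control features. MN1VP16 cells had 5 of 86 lower (5.81%) and 2 higher (2.33%) against Gr1Mac, beside 2.11% and 3.66% of all genes. Against MN1 cells 10 were higher (11.6%) and 0 lower by limma, beside 1.15% and 2.7% of all genes. In that comparison 1 was lower at an unadjusted p under 0.05, beside 13.3% of all genes. The 10 became 0 without MN1 array 2 and 0 with the block for Xist-high and Y-high arrays, 1 without MN1VP16 array 2, and 5 without Gr1Mac array 1 or Gr1Mac array 2. The 5 and the 2 against Gr1Mac both became 0 without Gr1Mac array 2.

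All 44 calls in MN1 against Gr1Mac kept their direction under every alternative in which the gene was measured, and 8 were called under each of them: Itgam, Ctss, Myd88, Map3k8, Spi1, Irak3, Ptgs2 and Clec4d. Of the 44, 21 were lost without MN1 array 2, 18 without Gr1Mac array 1, 17 without Gr1Mac array 2 and 33 with the block for control features. Of the 7 calls in MN1VP16 against Gr1Mac and the 10 in MN1VP16 against MN1, 0 were called under every alternative, and all kept their direction. Leaving out each array in turn, MN1VP16 array 1 and MN1 array 1 included, lost some of the 10. The block for control features is estimated from the MN1VP16 arrays alone, since its split sets both MN1 arrays against both Gr1Mac arrays. For MN1VP16 against MN1, the block for Xist-high and Y-high arrays is likewise estimated from the Gr1Mac arrays alone. The values that follow are from all 6 arrays.

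**Figure D5:**
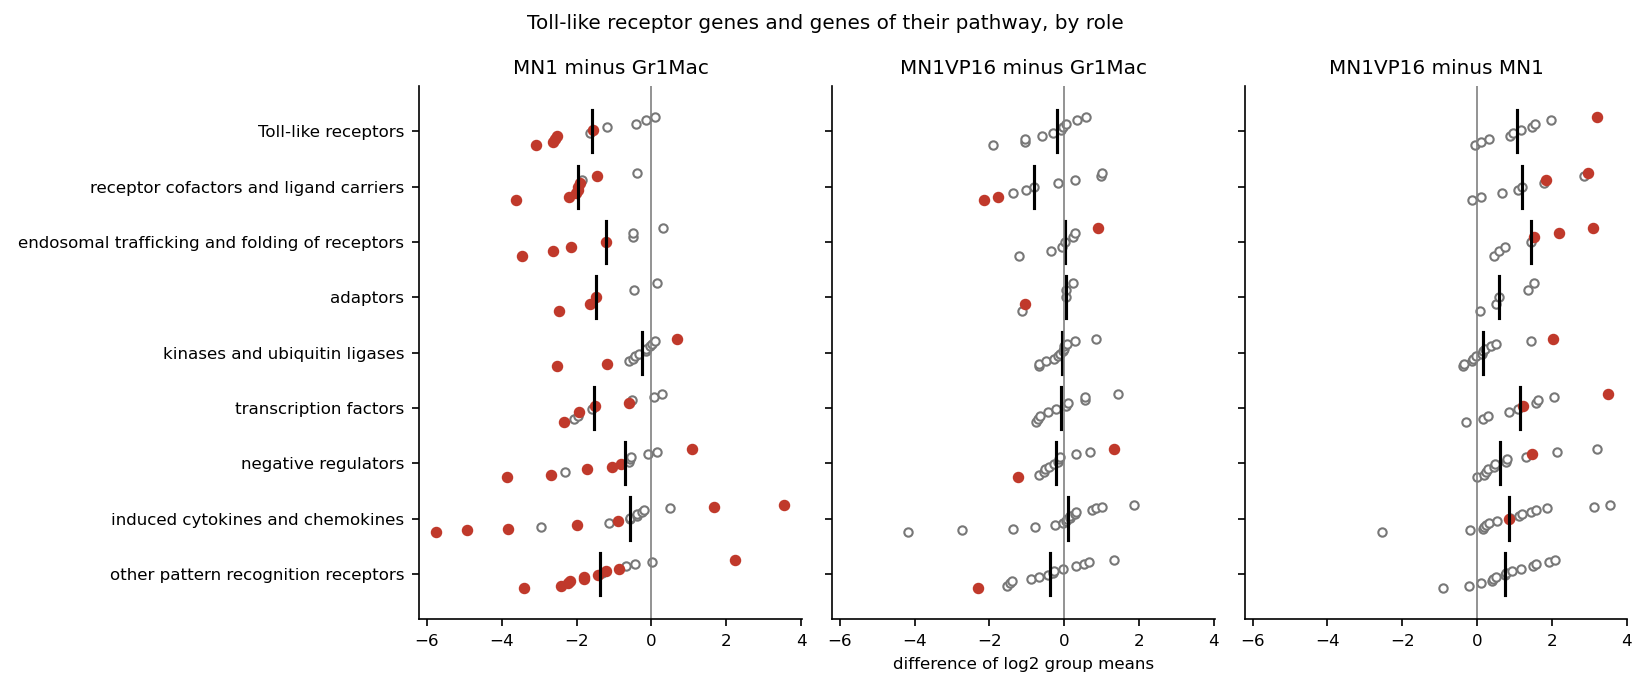
Differences of log2 group means for the receptor genes and the measured genes of each pathway role in the 3 comparisons; each point is a gene, filled points passed limma at an adjusted p under 0.05, and black bars are medians. In MN1 minus Gr1Mac most filled points lie left of 0, among them 7 of the 9 receptor cofactors, and in MN1VP16 minus MN1 all filled points lie right of 0.

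Cofactors and ligand carriers had 7 of 9 members lower in MN1 cells than in Gr1Mac cells, beside 12% of all genes. Itgam fell by 3.62 (SE 0.30, limma adjusted p = 0.00137); Gr1Mac cells were sorted on its product CD11b, so the gate sets its level there and its place among the 7 of 9, the 39 of 86 and the 8 called under each alternative is no independent result. Clec7a, the beta-glucan receptor known to act with Tlr2, fell by 2.21 (limma adjusted p = 0.0139). The scavenger receptor Cd36 was dim in every group's mean and is given no fold, though it was called lower in MN1 and in MN1VP16 cells than in Gr1Mac cells (limma adjusted p = 0.00341 and 0.0171). Ly96, the lipopolysaccharide-binding partner of Tlr4, read 6.63 and 6.90 on the MN1 arrays, against 8.40 and 8.06 on the Gr1Mac arrays (difference -1.47, adjusted p = 0.0365). In MN1VP16 cells against MN1 cells, Ly86, the partner of the Tlr4-related receptor Cd180, rose by 2.97 (SE 0.52, limma adjusted p = 0.0431) and Itgam rose by 1.85 (adjusted p = 0.0362).

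The list for endosomal trafficking and folding had 4 of 7 members lower in MN1 cells, beside 12% of all genes. Unc93b1, the chaperone that carries the nucleic acid receptors to endosomes, read 10.60 and 10.35 on the MN1VP16 arrays, 8.66 and 7.93 on the MN1 arrays, and 10.71 and 10.20 on the Gr1Mac arrays. The MN1VP16 arrays overlapped the Gr1Mac arrays and the MN1 arrays lay below both. Unc93b1 fell by 2.16 in MN1 against Gr1Mac (SE 0.30, limma adjusted p = 0.00445) and was higher in MN1VP16 than in MN1 by 2.19 (SE 0.30, adjusted p = 0.0284). The endosomal protease Ctss fell by 3.45 in MN1 cells (adjusted p = 0.00401) and Lgmn, another such protease, was at least 1.73-fold lower (adjusted p = 0.0127). Ctss and the protease Ctsb were higher in MN1VP16 than in MN1, by 3.10 and 1.52 (adjusted p = 0.0316 and 0.0248). Hsp90b1, a chaperone that folds most Toll-like receptors, was higher in MN1VP16 than in Gr1Mac cells by 0.91 (adjusted p = 0.0401).

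Adaptors had 3 of 5 members lower in MN1 cells, beside 12% of all genes. The differences were -2.48 for Tirap, which bridges Tlr2 and Tlr4 to Myd88, -1.64 for Myd88 and -1.49 for Pik3ap1 (limma adjusted p = 0.00313, 0.00224 and 0.0190). Myd88 read 10.26 and 10.13 on the MN1VP16 arrays, 9.77 and 9.46 on the MN1 arrays, and 11.32 and 11.20 on the Gr1Mac arrays. MN1VP16 arrays were between the others, and Myd88 was also lower in MN1VP16 than in Gr1Mac cells, with a difference of -1.06 (SE 0.18, adjusted p = 0.0311). The list of kinases and ubiquitin ligases, which also holds binding partners such as Tab1, had 12 members measured. Of these, 2 fell in MN1 cells (16.7%, beside 12% of all genes) and 1 rose (8.33%, beside 17.3%). The differences were -2.52 for Map3k8, -1.18 for Irak2 and 0.67 for Tab1 (limma adjusted p = 0.00312, 0.00476 and 0.0238). Map3k8 was higher in MN1VP16 than in MN1 by 2.02 (adjusted p = 0.0321).

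Among 10 transcription factors, 4 fell in MN1 cells, beside 12% of all genes. Spi1, which encodes PU.1, read 11.20 and 10.76 on the MN1VP16 arrays, 9.82 and 8.99 on the MN1 arrays, and 11.90 and 11.56 on the Gr1Mac arrays. It fell by 2.33 in MN1 against Gr1Mac (SE 0.32, limma adjusted p = 0.00430). The NF-kB subunits Rel and Relb were dim in MN1 cells; Rel was at least 2.89-fold lower than in Gr1Mac cells and Relb at least 2.56-fold lower (adjusted p = 0.00274 and 0.00981). Irf8, a factor of the monocyte and dendritic cell lineage, read 11.84 and 11.08 on the MN1VP16 arrays, against 7.98 and 7.96 on the MN1 arrays, and was higher by 3.49 (SE 0.64, limma adjusted p = 0.0465). Rel was at least 1.79-fold higher in MN1VP16 than in MN1 cells (adjusted p = 0.0457).

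Negative regulators had 5 of 12 members lower (41.7%, beside 12% of all genes) and 1 higher (8.33%, beside 17.3%) in MN1 cells. Irak3, a kinase-like brake on Myd88 signalling, read 9.10 and 9.45 on the MN1VP16 arrays, 8.05 and 7.58 on the MN1 arrays, and 10.59 and 10.42 on the Gr1Mac arrays. It was called in all 3 comparisons, by -2.69 in MN1 against Gr1Mac (limma adjusted p = 0.00140), -1.23 in MN1VP16 against Gr1Mac (0.0379) and 1.46 in MN1VP16 against MN1 (0.0334). In MN1 against Gr1Mac the difference was -3.87 for Dusp1 and -1.73 for Nfkbia, the inhibitor of NF-kB (limma adjusted p = 0.00980 and 0.0101). Sigirr, an inhibitory receptor of the family, was higher than in Gr1Mac cells in MN1VP16 cells by 1.34 (adjusted p = 0.0475) and in MN1 cells by 1.10 (adjusted p = 0.0281).

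The list of induced cytokines and chemokines, which also holds the enzyme gene Ptgs2, had 16 members measured. Of these, 5 fell (31.2%, beside 12% of all genes) and 2 rose (12.5%, beside 17.3%) in MN1 cells. Ptgs2, the inducible cyclooxygenase, read 3.61 and 6.55 on the MN1VP16 arrays, 3.39 and 3.61 on the MN1 arrays, and 8.91 and 9.58 on the Gr1Mac arrays. It was dim in MN1 cells and at least 10.6-fold lower than in Gr1Mac cells (limma adjusted p = 0.00581). Cxcl2 was at least 26.8-fold lower in MN1 cells (adjusted p = 0.0232), and Il1b fell by 3.84 (adjusted p = 0.0108). The genes that rose were Il6, at least 2.76-fold (adjusted p = 0.00504), and Il12a, at least 1.05-fold (adjusted p = 0.0387), both dim in Gr1Mac cells. The chemokine Ccl2 was at least 1.05-fold higher in MN1VP16 than in MN1 cells (adjusted p = 0.0457).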

How the data were processed

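Gene expression was measured with 6 Affymetrix Mouse430_2 arrays, 2 in each of 3 groups taken from the sample titles. Per the labels' protocols, TRIZOL extraction was followed by 3' IVT labelling, which copies transcripts from their 3' ends. The deposited table holds log2 values per probe set that the authors made with RMA, per the submitters' processing notes (its version is not given in the sources used here). Its background subtraction, quantile normalisation and probe summary compress differences of dim genes and hide changes in total RNA per cell. Array medians were 5.36 to 5.43, and the number of arrays limits the precision.

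Of 45101 features, 64 controls were left out, as were 932 probe sets annotated to several genes and 9160 to none. The other 34945 gave 18193 genes, each read from its probe set with the highest mean. Gene symbols of the 10 receptors matched RefSeq by gene number in all 10 cases. With limma 3.58.1 (R 4.3.3), 1 linear model with a term for group covered all 6 arrays (3 residual and 3.03 prior degrees of freedom), and p-values were adjusted by Benjamini-Hochberg over all genes within a comparison. The fit was tested on simulated data. With 2 arrays against 2, an exact permutation test cannot fall below 0.333, so none was used. For a group with a mean at or below 5.84, a fold against it is written as "at least", with that group's arrays held at 5.84 or their own higher reading.

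The receptors, the pathway lists and the marker lists were chosen with earlier results of these data known. Named were all 10 receptors with all their probe sets, for each pathway list and comparison up to 3 called genes with the largest difference, and the 5 genes most like the receptor of widest range; Ly96, Il6, Il12a, Mavs, Sigirr in MN1 against Gr1Mac, the genes called under every alternative, the cell type markers and the genes named for the difference between the MN1VP16 arrays were chosen after their values were seen. Same-numbered arrays did not deviate together (correlation -0.05 to 0.08), so the number was not used as a block. Arrays were also split by Xist against Y-linked genes and by the first principal component of 30 bright control features. The control split set both MN1 arrays and MN1VP16 array 1 against MN1VP16 array 2 and both Gr1Mac arrays. MN1 minus Gr1Mac therefore cannot be told apart from the control split, and a block for it is estimated from the MN1VP16 arrays alone. In the same way MN1VP16 minus MN1 cannot be told apart from the Xist and Y split, whose block is estimated from the Gr1Mac arrays alone. Alternatives were other probe set choices, filters on dim genes, fits on the compared groups alone, a variance trend, median centring, the blocks and leaving out each array.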

Additional observations from a re-analysis of the deposited data

How the results depend on the processing

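Of the 17 alternatives, leaving out either MN1VP16 array and fitting MN1 and Gr1Mac alone give 1 and the same result for MN1 minus Gr1Mac, as do the Xist and Y block and leaving out Gr1Mac array 2, and several cannot change a difference. Over the 17, Tlr1, Tlr2, Tlr4, Tlr6 and Tlr13 kept their lower direction in MN1 against Gr1Mac, as did Tlr1 its higher direction in MN1VP16 against MN1. Where 1 array was left out, the lone array of its group is assumed to vary like the other groups. Leaving out each array in turn gave 3 to 7 receptor genes lower in MN1 than Gr1Mac (3 without MN1 array 2) and 0 to 2 higher in MN1VP16 than MN1 (0 without MN1 array 2; 2, Tlr1 and Tlr4, without MN1 array 1). For the pathway genes it gave 21 to 43 lower and 2 to 4 higher in MN1 than Gr1Mac, 0 to 4 lower and 0 to 3 higher in MN1VP16 than Gr1Mac, and 0 to 10 higher in MN1VP16 than MN1. Differences that changed sign on leaving out arrays ranged from -0.079 to 0.25 for Tlr9 in MN1 minus Gr1Mac; in MN1VP16 minus Gr1Mac from -0.49 to 0.32 for Tlr3, -1.18 to 0.57 for Tlr5, -0.60 to 1.28 for Tlr7, -0.15 to 0.078 for Tlr8 and -0.11 to 0.19 for Tlr9; and in MN1VP16 minus MN1 from -0.0032 to 1.75 for Tlr5 and -0.21 to 0.12 for Tlr9. None of these was called.

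With the block for Xist-high and Y-high arrays, where MN1 minus Gr1Mac rests on Gr1Mac array 1 alone, Tlr6 and Tlr13 had adjusted p of 0.0545 and 0.0717, Tlr3, dim throughout, was called lower (-0.82, adjusted p = 0.0322, and likewise without Gr1Mac array 2), and 0 receptor genes and 0 pathway genes were higher in MN1VP16 than MN1; 2 pathway genes were higher in MN1 than Gr1Mac and 2 lower in MN1VP16 than Gr1Mac. Under it Tlr3 and Tlr9 turned to 0.32 and -0.11 in MN1VP16 minus Gr1Mac, and Tlr8 to -0.13 in MN1VP16 minus MN1. With the block for control features, 11 pathway genes were lower and 0 higher in MN1 than Gr1Mac, 0 higher in MN1VP16 than Gr1Mac and 1 higher in MN1VP16 than MN1, and Tlr7 and Tlr8 turned to -0.60 and 0.023 in MN1VP16 minus Gr1Mac. With only the compared groups fitted, pathway genes in MN1VP16 numbered 1 higher and 3 lower than Gr1Mac and 5 higher than MN1. When _x_at, _s_at and _a_at probe sets were dropped, the counts against Gr1Mac were also 1 and 3, and Tlr3 turned to 0.00094. Pathway genes higher in MN1VP16 than MN1 numbered 17 without the dimmest 40% of genes (3 were then higher in MN1 than Gr1Mac), 16 without genes with all group means below the median of highest means, 16 with a variance trend and 6 with median centring; 1 was lower under each of the median filter and the trend. The trend and the centring each gave 0 higher in MN1VP16 than Gr1Mac. Except where an alternative leaves fewer genes or arrays by its own construction, the cause was not tested.

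The arrays share replicate numbers without a stated pairing. With the replicate block, Tlr7 passed in MN1 minus Gr1Mac (-1.63, adjusted p = 0.0207), the receptor calls given above were all made, and pathway genes higher in MN1VP16 than Gr1Mac numbered 0.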

Other observations

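Pattern recognition receptors outside the Toll-like family were counted as well. Of 14 measured, 9 fell and 1 rose in MN1 cells against Gr1Mac cells (limma, adjusted p under 0.05), beside 12% and 17.3% of all genes, with a median difference of -1.37. Nod1, a cytosolic receptor for bacterial cell wall fragments, read 8.41 and 9.12 on the MN1VP16 arrays, 7.37 and 6.30 on the MN1 arrays, and 10.36 and 10.10 on the Gr1Mac arrays, and fell by 3.40 in MN1 against Gr1Mac (SE 0.40, limma adjusted p = 0.00290). Clec4d, a lectin receptor for mycobacterial glycolipids, read 10.49 and 10.20 on the MN1VP16 arrays, 10.53 and 9.97 on the MN1 arrays, and 12.41 and 12.92 on the Gr1Mac arrays. Clec4d was lower than in Gr1Mac cells in MN1VP16 cells (difference -2.32, limma adjusted p = 0.0169) and in MN1 cells (difference -2.41, adjusted p = 0.00263). Trem1, an amplifier of inflammatory signals, fell by 2.24 in MN1 cells (adjusted p = 0.0372), a call lost without MN1 array 2 or either Gr1Mac array. Mavs, the mitochondrial adaptor of the RNA helicases, was the member that rose, by 2.22 (adjusted p = 0.0161), also lost without MN1 array 2 or Gr1Mac array 2. In MN1VP16 cells against MN1 cells 0 of the 14 were called by limma, and 6 were higher at an unadjusted p under 0.05, beside 9.15% of all genes.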
